A study of Mus musculus with 14 samples.

Results

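The genes described here are the 7 LXR and sterol efflux genes Nr1h2, Nr1h3, Abca1, Abcg1, Apoe, Mylip and Lpcat3. They were chosen by symbol as textbook members of the pathway, and all 7 were found among the 24015 rows of the deposited count table. All 7 also passed the filter on low counts. RNA was measured in 14 libraries of mouse embryonic fibroblasts. These are cells of connective tissue grown from the embryo, here of strain 129s2, taken at embryonic day 14.5 and used at passage 3 to 4. The cells were wild type or SirT7-/-, and were kept for 18 hours either in normal medium or in medium without glucose. The 4 combinations are called WT-NT (wild type, normal medium, 4 libraries), WT-GS (wild type, no glucose, 3 libraries), KO-NT (SirT7-/-, normal medium, 4 libraries) and KO-GS (SirT7-/-, no glucose, 3 libraries). SirT7-/- cells lack a nuclear sirtuin, an enzyme that uses NAD to remove acyl groups from proteins. The labels do not say whether replicates came from separate embryos or cultures, so p-values measure only the spread between these libraries, which may be technical.

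LXR alpha, encoded by Nr1h3, and LXR beta, encoded by Nr1h2, are nuclear receptors for oxysterols, the oxidised forms of cholesterol that accumulate when a cell holds more sterol than it needs. Each binds DNA together with a retinoid X receptor, recruits corepressors when no ligand is bound and coactivators when it is, and so raises the genes that remove cholesterol from the cell. Abca1 and Abcg1 are transporters that move cholesterol and phospholipid across the plasma membrane to apolipoproteins and to high density lipoprotein. Apoe is a secreted apolipoprotein that accepts this lipid, Mylip (also called Idol) is a ubiquitin ligase that sends lipoprotein receptors to the lysosome, and Lpcat3 places polyunsaturated chains into membrane phospholipids. LXR beta is known to be made by most cell types, while LXR alpha is richest in liver, fat and macrophages, and macrophages also make much Apoe. SREBP2 is the sterol-sensing transcription factor that works in the opposite sense, raising cholesterol synthesis and uptake when sterol is scarce.

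The promoters of Abca1 and Lpcat3 are shown because these genes had the largest called changes among the 7, in opposite directions, and the Abca1 promoter is known for its LXR element. The change of Abca1 meant here was called in SirT7-/- cells without KO-NT 4 and KO-GS 3, a fit chosen after seeing the data. With all 14 libraries Abca1 was not called by edgeR's quasi-likelihood test (adjusted p 0.301 in wild-type and 0.362 in SirT7-/- cells). Each run is the 250 bases before the start of the gene, 5′ to 3′ on the gene's strand, from RefSeq on build GRCm38.p6. Abca1 is at chr4:53159896-53160145 on the minus strand and Lpcat3 at chr6:124662854-124663103 on the plus strand. Capitals mark matches to the motifs searched.
Abca1: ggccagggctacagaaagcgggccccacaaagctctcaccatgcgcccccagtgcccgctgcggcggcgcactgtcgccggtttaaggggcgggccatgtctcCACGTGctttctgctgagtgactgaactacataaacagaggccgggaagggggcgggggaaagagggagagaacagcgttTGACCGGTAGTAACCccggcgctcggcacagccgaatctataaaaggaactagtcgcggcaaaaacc
Lpcat3: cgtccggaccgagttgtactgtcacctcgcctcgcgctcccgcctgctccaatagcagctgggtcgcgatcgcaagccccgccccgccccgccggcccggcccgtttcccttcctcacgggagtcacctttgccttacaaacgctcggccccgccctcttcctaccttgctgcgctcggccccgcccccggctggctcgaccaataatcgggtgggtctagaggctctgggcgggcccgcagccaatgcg

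In the Abca1 promoter the capitals mark an E-box (CACGTG, from 147 to 142 bases before the start) and a DR4 element, the direct repeat bound by LXR with its partner, from 67 to 53 bases before the start on the opposite strand. The DR4 search asked for GGTNA, then 5 bases, then GGTNA, on both strands. Windows of 300 bases, from 250 before to 50 after the start, held this DR4 in 236 of 32851 promoters (0.718%), and the E-box in 7.15%. Promoter entries were found for 6 of the 7 genes, all but Abcg1, and Abca1 was the only one with either motif. A core sterol regulatory element (TCACNCCAC, both strands), found in 1.24% of promoters, had no match in the windows of those 6 genes. A match is a description of these letters and says nothing of binding in these cells.

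Total counts per library ran from 59788270 to 91607861. Sirt7 itself was at 16.9 to 23.1 CPM, the count scaled to the total of its library, in the wild-type libraries and at 0.301 to 1.41 CPM in the libraries labelled SirT7-/-. Of 14 fibroblast markers, 14 were above 1 CPM on average in each group, and 0 rose and 7 fell in wild-type starvation (median log2 change -0.89). Their summed level was 43864 to 51372 CPM in WT-NT but 24490 to 26459 in WT-GS, and in the SirT7-/- groups 28366 to 51062 CPM in KO-NT and 26304 to 43534 in KO-GS. The sum of 8 neural and glial markers was 83.5 to 143 CPM in WT-NT, 167 to 255 in WT-GS, 111 to 205 in KO-NT and 155 to 261 in KO-GS, and 1 of them rose and 2 fell in wild-type starvation. Of all tested genes, 25.9% rose or fell in that comparison at an adjusted p under 0.05 by edgeR. The part of the fibroblast and neural marker shifts in the results on starvation was not tested. Macrophage markers varied widely: their summed level was 352 to 2357 CPM in WT-NT, 14.7 to 391 in WT-GS, 447 to 826 in KO-NT and 124 to 1194 in KO-GS, and of 20 markers only Cd163 was at 0 in a whole group, WT-GS. In bulk RNA, fewer cells of a type and less RNA per cell cannot be told apart. Libraries stood apart within both SirT7-/- groups and, to a lesser degree, within WT-NT. For library pairs, the chi-square per degree of freedom was taken over genes with at least 20 counts in the pair together. It was 34.0 to 45.0 among KO-NT 1 to 3, but 637 to 679 between each of them and the library labelled KO-NT 4. It was 219 between KO-GS 1 and 2, and 388 to 620 between each of these and the library labelled KO-GS 3. In wild-type cells it was 61.7 to 193 among WT-NT 1 to 3, 200 to 344 between each of them and WT-NT 4, and 45.2 to 94.4 in WT-GS. Srebf2, which encodes SREBP2, placed KO-NT 4 and KO-GS 3 nearer to the other medium. It was at 267 to 309 CPM in KO-NT 1 to 3 and at 105 in KO-NT 4, and at 90.4 and 79.2 CPM in KO-GS 1 and 2 and at 202 in KO-GS 3. Counts of the 7 genes called are therefore given with all 14 libraries as labelled and without these 2 libraries, as are many single values. That choice was made after seeing the data, so the fits without them are no independent test. Whether their labels were exchanged was not tested, and the values as labelled for SirT7-/- cells rest on the labels being right.

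The transcripts of these genes differed by widely in abundance. Per kilobase of exon, the WT-NT level was highest for Lpcat3 at 34.0 ± 1.05 CPM per kb (SD, n = 4), then Nr1h2 at 21.2 ± 5.26, and the ranges of these 2 genes did not overlap. Apoe at 13.5 ± 11.4, Mylip at 8.33 ± 1.67 and Abca1 at 7.10 ± 3.54 CPM per kb followed with overlapping ranges. The Apoe range, 3.72 to 29.0 CPM per kb, also covered that of Nr1h2, 16.1 to 26.3, so these were not separated. Abcg1 at 0.974 ± 0.586 and Nr1h3 at 0.646 ± 0.395 CPM per kb overlapped with each other and lay below the lowest library of every other gene. In WT-GS the order at the top was no longer separated: Lpcat3 ranged from 15.5 to 18.4 CPM per kb and Nr1h2 from 15.9 to 17.5. Apoe, from 4.42 to 17.0 CPM per kb, overlapped both, while Abca1 ranged from 8.54 to 12.4. Abcg1, at 0.965 to 1.22 CPM per kb, and Nr1h3, at 0.576 to 0.666, stayed lowest there and did not overlap.

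**Figure D1:**
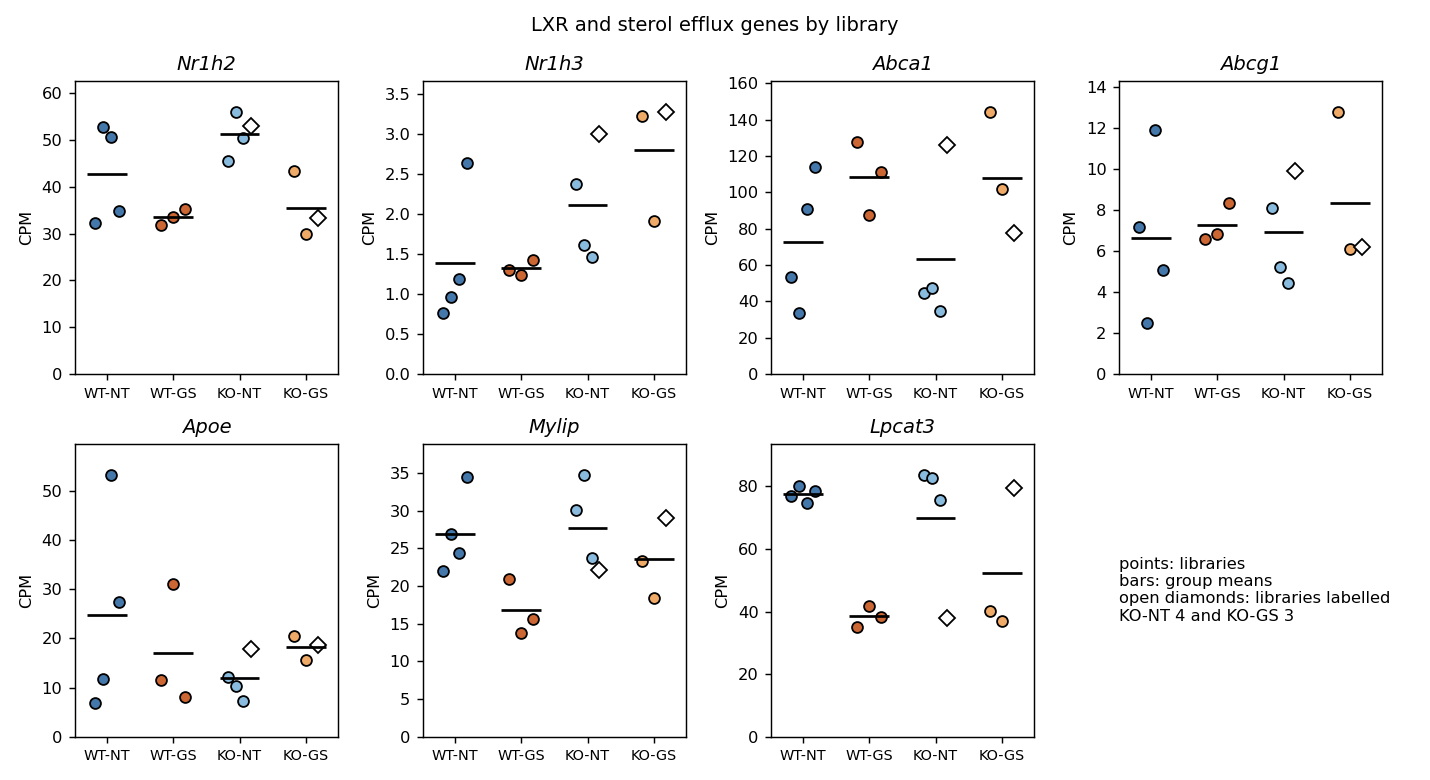
Level of each gene in CPM (vertical axes, linear from 0) in the 14 libraries, by group, with bars at group means and KO-NT 4 and KO-GS 3 as open diamonds. Lpcat3 fell into a high set at 74.6 to 83.6 CPM and a low set at 35.2 to 41.9 CPM, with KO-NT 4 in the low set and KO-GS 3 in the high set.

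The first question is what 18 hours without glucose does to these genes in wild-type cells. Lpcat3 and Mylip fell, and the other 5 genes did not pass the test. Of the 7 genes, 0 were higher and 2 lower at an adjusted p under 0.05, where 12.9% of all tested genes were called higher and 13.1% lower (25.9% in either direction, of 15666 genes). Both calls were made by edgeR's quasi-likelihood test with Benjamini-Hochberg adjustment over all genes, as were those below. The same 2 genes were the only ones whose WT-NT and WT-GS ranges did not overlap, against 44.6% of all genes. The median log2 change of the 7 was -0.30, and that of all genes was -0.04. With the 2 libraries left out, Lpcat3 and Mylip were again called in wild-type cells, against 20.4% of genes called higher and 19.1% lower (39.6% in all, of 15864 genes).

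The second question is the same response in SirT7-/- cells. With all libraries as labelled, 0 of the 7 were called, and neither was any gene of the table by edgeR (0%). DESeq2 and limma-voom also called 0 of the 7, and of the 15666 genes of the table they called 255 and 0. At an unadjusted p under 0.05, edgeR, DESeq2 and limma-voom each had 1 of the 7, Nr1h2, against 2919, 3434 and 2912 of the 15666 genes. It was also the only one with separate ranges, against 12.4% of all genes. When the library labelled KO-NT 4 and that labelled KO-GS 3 were left out, Abca1 rose and Lpcat3 fell, where 18.6% of genes were called higher and 14.5% lower (33.1% in all). Ranges were then separate for 5 of the 7 (Abca1, Apoe, Lpcat3, Mylip and Nr1h2), against 63.5% of all genes, with 3 libraries facing 2. The share of the 7 called was thus near that of the whole table in each genotype. Counts for the other lists below stand against the same shares, 25.9% of all genes in wild-type cells with all libraries. On 12 libraries the shares were 39.6% in wild-type and 33.1% in SirT7-/- cells.

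**Figure D2:**
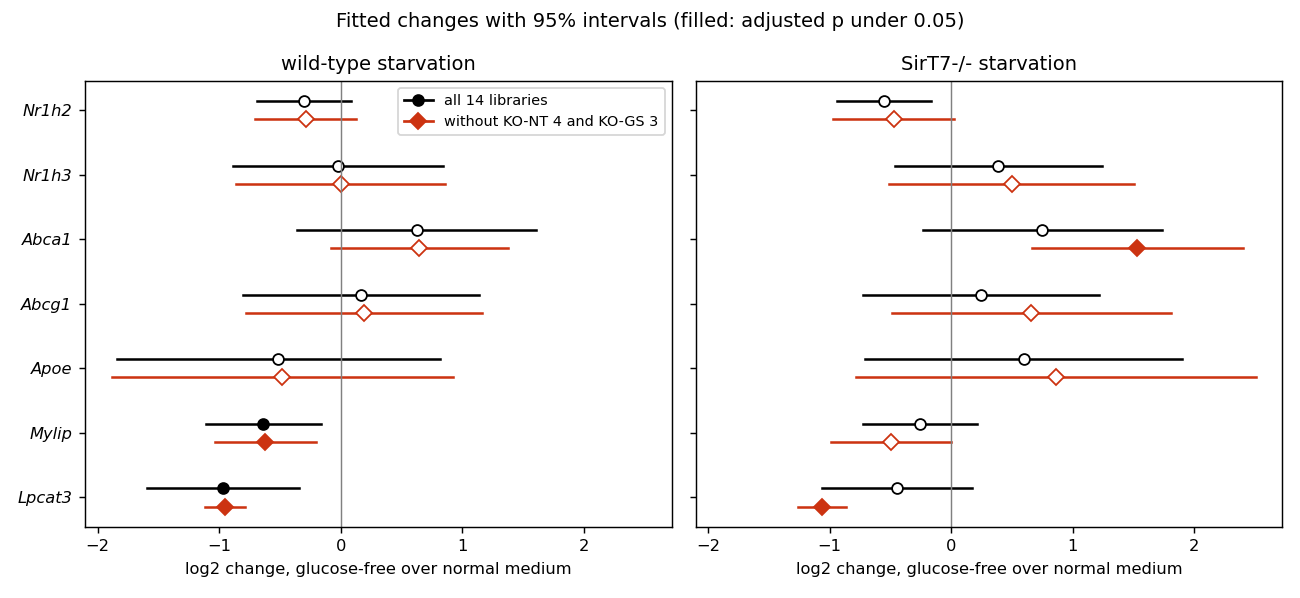
Fitted log2 change, glucose-free over normal medium (horizontal axis), with 95% intervals, for each gene in wild-type and SirT7-/- cells, from all 14 libraries (circles) and without KO-NT 4 and KO-GS 3 (diamonds). Filled symbols mark calls: Lpcat3 and Mylip in wild-type cells in both fits, and Abca1 and Lpcat3 in SirT7-/- cells without the 2 libraries.

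Of the receptors, Nr1h2 was the abundant one. Its level was 32.2, 52.8, 50.5 and 34.8 CPM in WT-NT 1 to 4, and 31.9, 33.5 and 35.2 CPM in WT-GS 1 to 3. It was 45.5, 55.8, 50.3 and 52.9 CPM in KO-NT 1 to 4, and 43.3, 29.8 and 33.2 CPM in KO-GS 1 to 3. WT-NT 2 and 3 stood with the KO-NT libraries, while WT-NT 1 and 4 lay within the range of the starved wild-type libraries. In the SirT7-/- groups as labelled, every starved library was lower than every library in normal medium, including both libraries that stood apart by other genes. The fitted log2 change was -0.56 (SE 0.178) in SirT7-/- cells, with an unadjusted p of 0.00842 and an adjusted p of 0.227 by edgeR, and -0.30 (SE 0.177; adjusted p 0.204) in wild-type cells. Without the 2 libraries the SirT7-/- value was -0.47 (SE 0.227; adjusted p 0.133).

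Nr1h3 was scarce throughout, with 56 counts in its lowest library. It was at 0.766, 0.965, 1.19 and 2.64 CPM in WT-NT 1 to 4, and at 1.297, 1.24 and 1.43 CPM in WT-GS 1 to 3. In SirT7-/- cells it was at 2.37, 1.61, 1.47 and 3.00 CPM in KO-NT 1 to 4, and at 3.23, 1.91 and 3.27 CPM in KO-GS 1 to 3. WT-NT 4 was the high library of its group, and in KO-NT the high library was KO-NT 4. Starvation changed the fitted level by -0.02 (SE 0.398; adjusted p 0.971 by edgeR) in wild-type and 0.39 (SE 0.393; adjusted p 0.584) in SirT7-/- cells, with intervals from -0.89 to 0.84 and from -0.46 to 1.24. Leaving out KO-NT 4 and KO-GS 3 gave 0.50 in SirT7-/- cells (SE 0.456; adjusted p 0.431 by edgeR). The ratio of Nr1h2 to Nr1h3 per kilobase was 14.2 to 58.6 in WT-NT, 26.3 to 29.0 in WT-GS, 18.9 to 37.2 in KO-NT and 10.9 to 16.7 in KO-GS, so that the KO-GS ratios lay below all WT-GS and KO-NT ratios.

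Rxra, the retinoid X receptor that pairs with either LXR, was at 70.8 to 83.4 CPM in WT-NT, against 37.8 to 41.2 CPM in WT-GS, a change of -0.88 (SE 0.214; adjusted p 0.0245). In KO-NT 4 it was at 47.7 CPM against 80.7 to 86.5 in KO-NT 1 to 3, and in KO-GS 3 at 77.5 CPM against 48.7 and 47.8 in KO-GS 1 and 2. Without those 2 libraries Rxra also fell in SirT7-/- cells, by 0.81 on the log2 scale (SE 0.0892; adjusted p 0.00015). Rxrb, its paralog, was at 31.6 to 42.3 CPM in WT-NT and 32.3 to 38.8 in WT-GS, a change of -0.03 (adjusted p 0.918). Of 15 tested partners and coregulators, 0 rose and 3 fell in wild-type cells (median log2 change -0.10), where 25.9% of all genes were called. Among the 3 that fell were Rxra and Tbl1xr1, a subunit of the corepressor complex, at -1.30. Tbl1x, the paralog of Tbl1xr1, had 0.42 (adjusted p 0.0507). In the fit without the 2 libraries, 2 rose and 3 fell in each genotype, and the SirT7-/- changes were -0.77 for Tbl1xr1 and 0.43 for Tbl1x.

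Abca1, the main exporter of cholesterol to lipid-poor apolipoproteins, varied widely within the groups in normal medium. Its level was 53.2, 33.4, 90.6 and 114 CPM in WT-NT 1 to 4, and 127, 87.6 and 111 CPM in WT-GS 1 to 3. It was 44.8, 47.4, 34.7 and 126 CPM in KO-NT 1 to 4, and 144, 102 and 77.6 CPM in KO-GS 1 to 3. WT-NT 3 and 4 reached the level of the starved wild-type libraries, so those groups overlapped, while WT-NT 1 and 2 lay with KO-NT 1 to 3. The library labelled KO-NT 4 lay among the starved libraries, and KO-GS 3 lay below all other starved libraries but above KO-NT 1 to 3. With all libraries the change was 0.63 (SE 0.454; adjusted p 0.301 by edgeR) in wild-type and 0.75 (SE 0.453; adjusted p 0.362) in SirT7-/- cells.

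In that smaller set of 12 libraries, Abca1 in SirT7-/- cells was at 42.3 ± 6.72 CPM (SD, n = 3) in normal medium and at 102 and 144 CPM without glucose. The fitted rise was 1.53 (SE 0.393; adjusted p 0.0130 by edgeR), or 2.89-fold with a 95% interval of 1.59 to 5.28. This call was lost without KO-NT 3 and without KO-GS 1, where the adjusted p reached 0.0955. In wild-type cells the change in the same fit was 0.65 (SE 0.330; adjusted p 0.140), and without WT-NT 4 as well it was 0.93 (adjusted p 0.0347). The difference between the genotypes was 0.88 (SE 0.517), with an interval from -0.26 to 2.03 and an adjusted p of 1, and was not called.

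Abcg1, which exports cholesterol to high density lipoprotein, was low in all groups. It was at 7.17, 2.47, 11.9 and 5.06 CPM in WT-NT 1 to 4, at 6.59, 6.82 and 8.33 CPM in WT-GS 1 to 3, at 8.08, 5.24, 4.45 and 9.88 CPM in KO-NT 1 to 4 and at 12.7, 6.08 and 6.20 CPM in KO-GS 1 to 3. WT-NT 3 and KO-GS 1 were the high libraries of their groups and WT-NT 2 was low, the WT-GS libraries lay close together, and all groups overlapped. The change was 0.17 (SE 0.447) in wild-type and 0.25 (SE 0.447) in SirT7-/- cells, with intervals from -0.80 to 1.14 and from -0.72 to 1.21, and without the 2 libraries it was 0.19 and 0.66 (SE 0.522; adjusted p 0.359 by edgeR).

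Of 13 tested ABCA and ABCG genes besides Abca1 and Abcg1, 1 rose and 1 fell in wild-type cells, with a median log2 change of 0.56. Of all genes, 25.9% were called there. Abca5, a lysosomal transporter, rose from 47.0 ± 11.6 CPM (SD, n = 4) in WT-NT to 121 ± 9.67 (SD, n = 3) in WT-GS, a change of 1.41 (SE 0.268; adjusted p 0.0245 by edgeR). Abca9 fell from 4.00 ± 1.51 to 1.39 ± 0.445 CPM (-1.48; adjusted p 0.0250). Abca12, known for its role in skin, was at 0 to 0.0890 CPM in WT-NT, against 0.385 to 0.469 CPM in WT-GS (adjusted p 0.0529), and Abca3, a lipid transporter of the lung, had 0.56 (adjusted p 0.0625). Over 12 libraries, 5 rose and 1 fell in wild-type cells, and 6 rose and 0 fell in SirT7-/- cells (median 0.97, against 0.03 for all genes), with Abca5 at 1.17 and Abca3 at 0.97 in the latter.

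In the wild-type groups, Apoe had the largest spread relative to its mean of the 7 genes. It was at 6.84, 11.7, 53.2 and 27.4 CPM in WT-NT 1 to 4, and at 11.6, 31.2 and 8.12 CPM in WT-GS 1 to 3. In SirT7-/- cells it was at 12.2, 10.3, 7.37 and 17.9 CPM in KO-NT 1 to 4, and at 20.6, 15.6 and 18.8 CPM in KO-GS 1 to 3. WT-NT spanned a 7.78-fold range that covered every WT-GS library. The change was -0.51 (SE 0.612; adjusted p 0.535 by edgeR) in wild-type and 0.60 (SE 0.603; adjusted p 0.582) in SirT7-/- cells. With KO-NT 4 and KO-GS 3 left out, both other KO-GS libraries were above KO-NT 1 to 3, and the change was 0.86 (SE 0.745; adjusted p 0.404).

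Macrophages are a known source of Apoe, and their markers differed between these libraries. WT-NT 3 had both the highest Apoe level and the highest summed macrophage marker level, 2357 CPM. WT-GS 2 had the lowest summed level of all, 14.7 CPM, and an Apoe level of 31.2 CPM, the highest of the starved libraries. WT-NT 1 had 1149 CPM of markers and the lowest Apoe level of all, 6.84 CPM. Of 19 tested macrophage markers, 0 rose and 6 fell in wild-type starvation (median log2 change -2.66), where 25.9% of all genes were called. What these cells contributed to the Apoe level was not tested. Of 11 tested other apolipoproteins and lipoprotein remodelling genes, 1 was called in wild-type cells: Apob, the apolipoprotein of low density lipoprotein, was at 0.684 to 3.17 CPM in WT-NT, against 0.153 to 0.435 CPM in WT-GS (-2.58; adjusted p 0.0471). Apoh had 1.55 (adjusted p 0.0537). With KO-NT 4 and KO-GS 3 left out of the fit, 2 of the 11 rose in SirT7-/- cells, Apoh at 1.91 and, named after its value was seen, the secreted chaperone Clu at 1.68 (adjusted p 0.00548).

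**Figure D3:**
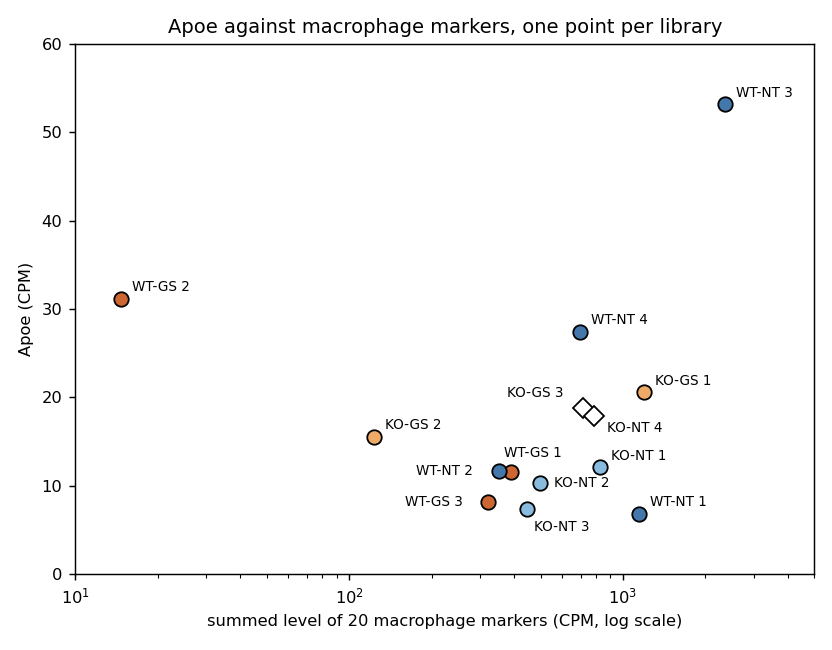
Apoe level (vertical axis, CPM) against the summed level of 20 macrophage markers (horizontal axis, CPM on a log scale), 1 point per library, with KO-NT 4 and KO-GS 3 as open diamonds. WT-NT 3 is highest on both axes, while WT-GS 2, at 14.7 CPM of markers, has 31.2 CPM of Apoe.

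Mylip, the ligase that removes lipoprotein receptors, was lower in starved wild-type cells. It was at 22.0, 26.8, 24.4 and 34.5 CPM in WT-NT 1 to 4, and at 21.0, 13.8 and 15.6 CPM in WT-GS 1 to 3. The groups were separate, by a narrow margin between WT-NT 1 and WT-GS 1. It fell by 0.64 on the log2 scale (SE 0.219; adjusted p 0.0493 by edgeR), to 0.644 times the WT-NT level with a 95% interval of 0.463 to 0.894, and by 0.62 (SE 0.187; adjusted p 0.0233) without the 2 libraries. The call with all libraries was close to the threshold: it was lost with limma-voom (adjusted p 0.0560) and with no filter (adjusted p 0.0590), and it was kept in only 3 of 14 fits that each left out 1 library. On 12 libraries it was kept in 10 of 12 such leave-out fits, and lost without WT-GS 2 or WT-GS 3 (adjusted p up to 0.0947). In SirT7-/- cells Mylip was at 30.0, 34.7, 23.7 and 22.1 CPM in KO-NT 1 to 4 and at 23.4, 18.4 and 29.0 CPM in KO-GS 1 to 3, with KO-NT 4 the lowest of its group and KO-GS 3 the highest of its own. The change there was -0.25 (SE 0.216; adjusted p 0.512), and -0.50 (SE 0.224; adjusted p 0.111) without the 2 libraries, where each starved library was below KO-NT 1 to 3.

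The receptors that Mylip acts on moved in both directions. Lrp8, the apolipoprotein E receptor 2, fell by 0.98 on the log2 scale (adjusted p 0.0323 by edgeR). Vldlr, the very low density lipoprotein receptor and named after its value was seen, rose from 66.7 ± 13.3 CPM (SD, n = 4) to 121 ± 6.60 (SD, n = 3), a change of 0.91 (adjusted p 0.0406). Of the 10 listed targets and ubiquitin partners of Mylip, 4 rose and 3 fell in wild-type cells (median -0.05), where 25.9% of all genes were called. The others that rose were Ezr at 0.79 and Msn at 0.44, which encode relatives of Mylip that also carry a FERM domain, and the ubiquitin-conjugating enzyme gene Ube2d3 at 0.20, also named after its value was seen. The deubiquitinase gene Usp2 fell, at -1.02. In the fit on 12 libraries, Lrp8 at -1.25 and Usp2 at -1.24 fell in SirT7-/- cells, and Vldlr at 1.33 and Ezr at 0.72 rose.

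Lpcat3, the acyltransferase of membrane phospholipids, varied little within the wild-type groups, with a coefficient of variation of 3.08% in WT-NT and 8.62% in WT-GS. It was at 76.9, 80.2, 74.6 and 78.5 CPM in WT-NT 1 to 4, and at 35.2, 41.9 and 38.2 CPM in WT-GS 1 to 3. In SirT7-/- cells it was at 83.6, 82.7, 75.8 and 38.1 CPM in KO-NT 1 to 4, and at 40.3, 37.0 and 79.7 CPM in KO-GS 1 to 3. The 14 libraries thus formed a high and a low set with nothing between 41.9 and 74.6 CPM, and KO-NT 4 and KO-GS 3 were the only libraries on the side of the other medium. In wild-type cells Lpcat3 fell by 0.97 on the log2 scale (SE 0.289; adjusted p 0.0336 by edgeR), to 0.511 times the WT-NT level. This call was lost when any 1 of WT-NT 1, 2 and 3 or WT-GS 1, 2 and 3 was left out (adjusted p up to 0.105). All libraries of the fit share 1 estimate of the spread. Without the 2 SirT7-/- libraries the wild-type fall was 0.95 with a smaller SE of 0.0745 (adjusted p 1.13e-05). This was 0.518 times the WT-NT level with a 95% interval of 0.462 to 0.580. The call was kept in 12 of 12 fits that each left out 1 more library. A planned fit on the WT-NT and WT-GS libraries alone gave a change of -0.97 (adjusted p 0.000331 by edgeR).

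In SirT7-/- cells the change of Lpcat3 was -0.45 (SE 0.285; adjusted p 0.382 by edgeR) with the libraries as labelled. Without the 2 libraries it fell by 1.06 (SE 0.0899; adjusted p 4.19e-05), from 80.7 ± 4.29 CPM (SD, n = 3) to 38.7 ± 2.32 (SD, n = 2). It too was kept in 12 of 12 such fits. All of these lack the 2 libraries, which lay on the side of the other medium for Lpcat3 itself and were left out after seeing the data. The fits are therefore no independent support for the fall. The difference between genotypes in that fit was -0.11 (SE 0.113), with an interval from -0.36 to 0.14. Lpcat3 shares 38 exon bases (1.67% of its exon length) with Emg1 on the opposite strand in the GENCODE M21 annotation, and since no strand setting is given, reads in that stretch cannot be assigned to 1 of them. It was the only one of the 7 genes with such an overlap.

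**Figure D4:**
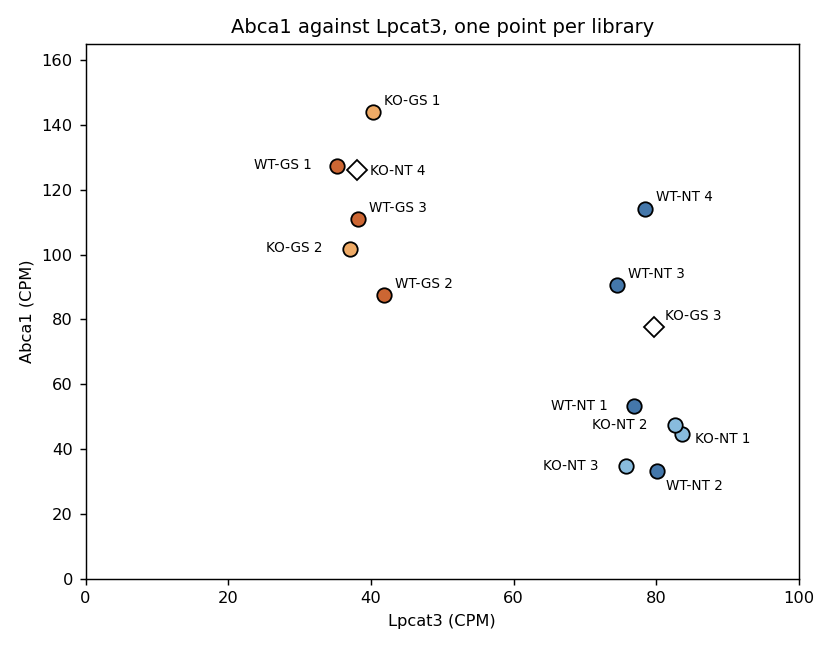
Abca1 (vertical axis, CPM) against Lpcat3 (horizontal axis, CPM), 1 point per library, with KO-NT 4 and KO-GS 3 as open diamonds. Libraries with Lpcat3 at 35.2 to 41.9 CPM had Abca1 at 87.6 to 144 CPM, and those with Lpcat3 at 74.6 to 83.6 CPM had Abca1 anywhere from 33.4 to 114 CPM.

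Of 8 other tested lysophospholipid acyltransferases, 1 rose and 1 fell in wild-type cells (median -0.47), where 25.9% of all genes were called. Lclat1, an acyltransferase of cardiolipin and phosphatidylinositol, rose from 65.8 ± 5.54 CPM (SD, n = 4) to 106 ± 7.31 (SD, n = 3), a change of 0.73 (adjusted p 0.0245 by edgeR). Lpcat4 fell from 25.4 ± 3.33 to 13.9 ± 1.90 CPM (-0.82; adjusted p 0.0257). Mboat7, which acts on phosphatidylinositol, had -0.45 (adjusted p 0.0543), and Lpcat2, an acyltransferase of macrophages among other cells, had -1.28 (adjusted p 0.0634). Over 12 libraries, 1 rose and 4 fell in wild-type and 1 rose and 3 fell in SirT7-/- cells, with Lclat1 at 0.66, Lpcat4 at -0.88 and Mboat7 at -0.43 in the latter.

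Further LXR target genes outside the 7 were tested for 13 of 18 listed. Of these, 0 rose and 5 fell in wild-type starvation, with a median log2 change of -0.96, where 25.9% of all genes were called. Srebf1, the transcription factor of fatty acid synthesis, was at 87.9 to 132 CPM in WT-NT, against 63.8 to 70.0 CPM in WT-GS, a change of -0.68 (SE 0.186; adjusted p 0.0274 by edgeR). The others include known targets of SREBP1 as well: the desaturase genes Scd2, from 1838 ± 159 to 408 ± 15.2 CPM (-2.13), and Scd1 (-1.35, named after its value was seen), and the fatty acid synthase gene Fasn (-1.23). Arl4c, a small GTPase linked to cholesterol transport, fell from 75.0 ± 16.6 to 37.4 ± 6.49 CPM (-0.96; adjusted p 0.0245). In the fit on 12 libraries, the same number fell in both genotypes, and in SirT7-/- cells 1 rose, Smpdl3a, a phosphodiesterase gene named after its value was seen, at 1.21 (adjusted p 0.0224). In that fit Srebf1 was at -0.88, Arl4c at -0.75, Scd2 at -1.98 and Fasn at -1.38 in SirT7-/- cells.

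Genes of sterol synthesis, breakdown, uptake and transfer were listed as well, and the lists share members such as Stard4 and Tmem97. Of 14 tested SREBP2 target genes, 0 rose and 10 fell in wild-type cells (median -1.55), among them Srebf2 itself at -1.57 and Insig1, a sterol sensor of the endoplasmic reticulum, at -2.05. Srebf2 was at 201 to 262 CPM in WT-NT, against 68.5 to 82.9 CPM in WT-GS. Without the 2 libraries, 13 of the 14 fell in each genotype (median -1.81 in SirT7-/- cells). Of 10 tested genes of oxysterol synthesis and breakdown, 1 rose and 3 fell in wild-type cells, where 25.9% of all genes were called. Hsd3b7, a bile acid synthesis enzyme that acts on oxysterols, rose from 15.2 ± 2.76 to 49.9 ± 1.88 CPM (1.76; adjusted p 0.0401 by edgeR), while the sterol reductase gene Dhcr7 (-1.83) and the oxysterol hydroxylase gene Cyp7b1 (-2.18) fell. Over 12 libraries, 2 rose and 4 fell in SirT7-/- cells, with Hsd3b7 at 1.98, Dhcr7 at -2.05 and Cyp7b1 at -1.70.

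Of 13 genes of uptake and lysosomal release, 2 rose and 5 fell in wild-type cells (median -0.12), where 25.9% of all genes were called. Npc1, which exports cholesterol from lysosomes, rose by 0.80 (adjusted p 0.0368 by edgeR), and the lipoprotein receptor genes Scarb1 (-1.20) and Lrp8 fell. Of 18 genes of intracellular sterol transfer and storage, 3 rose and 1 fell (median 0.21), near that share of all genes. The sterol carrier gene Stard5 rose from 12.3 ± 0.772 to 29.5 ± 3.77 CPM (adjusted p 0.0245 by edgeR). The oxysterol-binding protein gene Osbp rose by 0.52 and the caveolin gene Cav1 by 1.08, while Tmem97, which encodes a sterol-binding membrane protein, fell by 0.75. In the fit without the 2 libraries, 4 and 6 genes of these lists rose in SirT7-/- cells and 5 and 2 fell, with Npc1 at 1.09, Scarb1 at -1.19, Stard5 at 1.09, Osbp at 0.40 and Tmem97 at -0.88. Of 14 other lipid-sensing nuclear receptors, 2 rose and 4 fell in wild-type cells (median -0.07), with Nr1d2, a clock repressor, at 1.01, and the receptors Thra at -1.19, Rara at -0.91 and Ppard at -0.69.

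The remaining comparisons ask what SirT7 loss does to these genes in each medium. In normal medium 0 of the 7 were called by edgeR, DESeq2 or limma-voom. By any of the 3, 0 had an unadjusted p under 0.05, against 658 of all 15666 genes by edgeR. Of the whole table edgeR called Sirt7 alone (0.00638%), DESeq2 called 23 genes and limma-voom 3. None had separate ranges, against 3.27% of all genes. The largest difference was that of Apoe at -1.03 (SE 0.567; adjusted p 0.968), with an interval from -2.26 to 0.20. In glucose-free medium 0 of the 7 were called by any of the 3 tools, where edgeR again called Sirt7 alone (0.00638%), DESeq2 7 genes and limma-voom 1. Each of the 3 tools had 1 of the 7 at an unadjusted p under 0.05 (608 of all 15666 genes by edgeR), Nr1h3, which was also the only one of the 7 with separate ranges, against 10.8% of all genes. It was higher in each KO-GS library than in each WT-GS library, by 1.04 (SE 0.428; unadjusted p 0.0309; adjusted p 0.893 by edgeR), with an interval from 0.11 to 1.97.

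With KO-NT 4 and KO-GS 3 left out, SirT7 loss gave 0 of the 7 called in normal medium (0.0252% of genes) and 0 in glucose-free medium (0.0063%). Nr1h3 remained higher in both KO-GS libraries, by 0.92 (SE 0.456), with an interval from -0.09 to 1.92 and an adjusted p of 1 by edgeR. Abca1 in normal medium was at -0.75 (SE 0.339; adjusted p 0.626). The intervals for Lpcat3 were the narrowest: 0.08 with an interval from -0.08 to 0.24 in normal medium, and -0.03 with an interval from -0.22 to 0.16 without glucose. With all libraries as labelled they ran from -0.68 to 0.45 and from -0.25 to 1.06. The 2 libraries left out were those on the side of the other medium for Lpcat3 itself. The difference between the genotypes' starvation responses was called for 0 of the 7 with all libraries (0% of genes) and for 0 without the 2 (0%). With all libraries 0 of the 7 had an unadjusted p under 0.05 by edgeR, DESeq2 or limma-voom, against 950 of 15666 genes by edgeR. With all libraries the differences ran from -0.25 for Nr1h2 to 1.11 for Apoe (SE 0.860), with adjusted p from 0.696 to 0.973. No gene of the lists above was called for SirT7 loss in either medium.

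Across the 14 libraries, which share genotype, medium and depth differences, the 7 genes did not vary as a unit. Of 21 pairs, Abca1 and Lpcat3 had the most negative Pearson correlation of log2 CPM, -0.77, and Mylip and Lpcat3 the most positive, 0.75. Abca1 and Abcg1, the pair of efflux transporters, had 0.64, while the receptors Nr1h2 and Nr1h3 had 0.01. Among 15659 other genes, the patterns most like Lpcat3 were those of Cyp51, a sterol synthesis enzyme (r = 0.99), and the fatty acid desaturase genes Fads2 (0.99) and Fads1 (0.99). Cyp51 was at 242 ± 26.2 CPM in WT-NT, against 41.0 ± 2.37 CPM in WT-GS. The most like Abca1 were Tagap (0.98), Fcho2 (0.96) and Mdfic (0.96), and the most like Mylip were Sspn (0.93), Kcp (0.93) and B3gnt9 (0.93). For Nr1h2 they were Zfp628 (0.98), Dohh (0.97) and Trim41 (0.96), and for Abcg1 Slc16a10 (0.96), BC005537 (0.95) and Lonrf3 (0.94). The closest genes were less alike for Nr1h3, with Acot11 (0.93), Adra1a (0.88) and Mcoln3 (0.86), and for Apoe, with Pygl, Cyp2c55 (both 0.84) and Ctsz (0.83). Adra1a, Mcoln3 and Cyp2c55 were near the floor, with highest group means of 0.197, 0.565 and 0.217 CPM, so their correlations rest on few counts.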

How the data were processed

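Total RNA from 14 libraries was prepared with an Illumina TruSeq RNA kit, per the labels' protocols. Per the submitters' processing notes, FastQC 0.11.3, Trimmomatic 0.36, HISAT2 2.1.0, SAMtools, StringTie 1.3.3 and DESeq2 1.18.1 were used with genome build mm9. Their order, the annotation and the strand setting are not given in the sources used here. The deposited table holds the authors' estimated counts per gene symbol, which are whole numbers and so needed no rounding. Rows with a date in place of a symbol (27) name no gene and were not described.

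Counts were fitted in R 4.3.3 with edgeR 4.0.16 (quasi-likelihood F-test, robust dispersion, TMM normalization, filterByExpr with a minimum count of 10 and a minimum total of 15) with 1 mean per group. The 5 comparisons are starvation in each genotype, SirT7 loss in each medium, and whether the genotypes respond to starvation differently. Benjamini-Hochberg adjustment ran over all tested genes, and an adjusted p under 0.05 was called. The SE is the log2 change divided by the root of F. Log2 CPM for correlations used a prior count of 2. Exon lengths and overlapping genes came from GENCODE M21, which is on another build than mm9 and gave no coordinates here. The code was tested on simulated data.

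The 7 genes and all lists were chosen with earlier results of these data known. Named are the 7 genes, Sirt7, Rxra, Rxrb, Srebf1, Srebf2, the up to 4 genes of each list with the smallest p in wild-type starvation, a few of which are not reported here, and the 3 genes most like each of the 7. Alternatives were DESeq2 1.42.0, limma-voom (limma 3.58.1), scaling by RLE or by library size only, unfiltered and more strictly filtered tables (at least 1 CPM throughout some group, with a mean count of 50), fits on the compared groups only, a replicate block, and fits that each left out 1 library. The fits without KO-NT 4 and KO-GS 3, and without these and WT-NT 4, were chosen after seeing the data.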

Additional observations from a re-analysis of the deposited data

Results flagged for a closer look

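Abca1 in the library labelled KO-NT 4 was at 126.135 CPM, and the other 3 KO-NT libraries lay between 34.7 and 47.4 CPM. The gap to the nearest of them was 0.861 of the range of the group, above the 95% critical value of Dixon's test for 4 samples. It was 1 of 14 groups of 4 tested (7 genes in WT-NT and KO-NT), and chance marks about 1 in 20. The same library was also at the level of the starved libraries for Lpcat3 (38.1 CPM) and Rxra (47.7 CPM), and at the level of KO-NT 1 to 3 for Nr1h2 (52.9 CPM).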

How the results depend on the processing

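The number of the 7 genes called by starvation depended on the libraries in the fit. In wild-type cells it was 1 with limma-voom and with no filter (Lpcat3 in both), 0 to 2 when 1 library was left out, 3 without KO-NT 4, KO-GS 3 and WT-NT 4 (with Abca1), and 2 with the other settings. Lpcat3 was called in 8 of those 14 fits, and its call was lost without any 1 of WT-NT 1, 2 and 3 or WT-GS 1, 2 and 3 (adjusted p up to 0.105). In SirT7-/- cells it was 0 to 1 with 1 library left out (Abca1, without KO-NT 4), and 2 without KO-NT 4 and KO-GS 3 or without these and WT-NT 4. With the replicate block it was 1 in SirT7-/- cells, Abca1 (adjusted p 0.0283), and 2 in wild-type cells, Abca1 (adjusted p 0.0295) and Lpcat3, while Mylip was lost (adjusted p 0.0746). The replicate numbers were not taken as pairs: same-numbered libraries deviated together with correlations from -0.12 to 0.46, and correlated best with their own number in 2 of 3, 1 of 3, 2 of 4 and 2 of 3 cases. In the fit on 12 libraries, leaving out 1 more gave 1 to 3 in wild-type cells (1 without WT-GS 2 or WT-GS 3, 3 without WT-NT 4) and 1 to 2 in SirT7-/- cells. A lone KO-GS library left there is assumed to vary like the other groups. Over the whole table, edgeR called 4063 genes in wild-type starvation and 0 once WT-GS 1, WT-GS 2 or WT-NT 3 was dropped, and in SirT7-/- starvation 0, where DESeq2 called 255. Nr1h3 had 56 counts in its lowest library.

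Signs turned only among changes that were not called, and the cause was not tested. Without KO-NT 4 and KO-GS 3, and then without WT-NT 4 too, wild-type starvation of Nr1h3 was at 0.0012 and 0.49, SirT7 loss in normal medium at -0.14 and -0.26 for Abcg1 and 0.0841 and 0.0766 for Lpcat3, SirT7 loss without glucose at 0.14 and 0.14 for Abca1 and -0.0299 and -0.0295 for Lpcat3, and the genotype difference at -0.11 and -0.11 for Lpcat3 and, for Mylip in the second, -0.0045. With limma-voom and the replicate block, Nr1h3 in wild-type starvation was at 0.12 and 0.38, and the genotype difference of Abcg1 at -0.20 and -0.054.

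With 1 library left out, wild-type starvation ranged from -0.11 to 0.61 for Abcg1, -0.21 to 0.48 for Nr1h3 and -1.28 to 0.19 for Apoe, and on 12 libraries from -0.0813 to 0.63, -0.21 to 0.49 and -1.28 to 0.22. SirT7-/- starvation of Abcg1 ranged from -0.17 to 0.46. SirT7 loss in normal medium ranged from -0.74 to 0.11 for Abca1, -0.20 to 0.52 for Abcg1, -0.0689 to 0.20 for Mylip and -0.21 to 0.10 for Lpcat3. In glucose-free medium it ranged from -0.31 to 0.13 for Abca1, -0.28 to 0.33 for Abcg1, -0.13 to 0.13 for Nr1h2, -0.0384 to 0.59 for Lpcat3 and -0.25 to 0.84 for Apoe. The genotype difference ranged from -0.17 to 0.69 for Abca1, -0.37 to 0.35 for Abcg1 and -0.0927 to 0.62 for Nr1h3.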
